A study of Homo sapiens with 16 samples.

Results

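The genes described here were the histone genes of the cluster families, taken as autosomal protein-coding genes whose GENCODE symbol begins with H1-, H2AC, H2BC, H3C or H4C. Of 73 such genes, 69 were matched by Ensembl ID in the count files (H2AC18, H2AC19, H3C2 and H3C3 were not analysed here), and 49 of those 69 held at least 10 counts summed over 16 libraries, out of 58676 genes counted. The 49 comprised 5 H1, 11 H2A, 16 H2B, 6 H3 and 11 H4 genes, with 40 in the cluster of chromosome 6, 5 and 2 in the clusters at 1q21 and 1q42 of chromosome 1, and 2 elsewhere (H1-10 and H4C16). Of the 20 genes left out for low counts, 11 were at 0 in all libraries. The spans of 24 of the 49 overlap another annotated gene, among them H1-10, H2AC6, H2AC25, H2BC4, H2BC5, H3C6 and H4C8. The part of such overlaps in their counts was not tested.

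The libraries came from A549, a lung adenocarcinoma line, and SUM159, a triple negative breast cancer line, each untreated (UT) or treated with 2 µM palbociclib (PD), an inhibitor of the cell cycle kinases CDK4 and CDK6, with 3 µM indisulam (IN), a sulfonamide that degrades the splicing factor RBM39, or with both at these doses (P+I), all for 16 h. A549 was grown in RPMI and SUM159 in a DMEM/F12 medium with insulin and hydrocortisone, so the line and its medium cannot be told apart. Each of the 8 groups had 2 libraries, which the study calls technical duplicates, so the p-values below measure the spread between these libraries, which may be technical. RNA was poly(A) selected, and levels are CPM, gene counts over the library's total in genes after TMM scaling within a line. Libraries held 18306636 to 34075588 counts in genes, and a gene with 3 counts would lie at 0.0880 to 0.164 CPM. CDH1, EPCAM and KRT8 were at their higher levels in A549 (CDH1 54.1 to 101 CPM per library in A549 and 0.145 to 0.590 in SUM159), and VIM was at 699 to 930 CPM in A549 and 2755 to 4144 in SUM159. CDKN2A, whose product p16 the study describes as absent from A549, was at 1.35 to 2.48 CPM there and at no more than 0.0482 CPM in SUM159.

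Core histones H2A, H2B, H3 and H4 form the octamer on which DNA is wound, and H1 binds the linker DNA between octamers. The bulk of histone protein is made during S phase from replication-dependent genes, whose mRNAs end in a short hairpin bound by SLBP and carry no poly(A) tail. A poly(A) library is made to keep those transcripts of such genes that run on to a polyadenylation site, together with the histone genes that are always polyadenylated. The counts here do not measure the amount of hairpin-ended mRNA, and hairpin-ended mRNA carried through the selection cannot be told apart in them from tailed RNA.

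The hairpin sorted the genes. A 16-base hairpin with a 6-base stem and a 4-base loop that begins with T was found 23 to 63 bases after the stop codon in 48 of the 49 genes, and not in H1-10. There were 9 kinds of hairpin, and 25 of the 48 genes held the commonest. Of the 48, 33 were annotated to end within 18 bases of the hairpin, and 15 had an annotated end 430 to 37155 bases of genome beyond it (median 6720). Of these 15 genes, 13 had a spliced transcript annotated, which need not be the one that runs past the hairpin. The sequences of genes that changed, and of those that stood out by level or line, are shown from GRCh38, 5′ to 3′ on the strand of the gene, with the hairpin in capitals:
H2BC21: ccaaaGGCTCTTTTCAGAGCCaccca
H2AC25: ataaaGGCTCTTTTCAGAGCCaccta
H2AC6: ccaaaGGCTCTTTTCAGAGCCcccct
H3C6: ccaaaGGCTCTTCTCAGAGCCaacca
H4C8: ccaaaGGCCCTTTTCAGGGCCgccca
H1-2: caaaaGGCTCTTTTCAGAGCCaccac
H2BC12: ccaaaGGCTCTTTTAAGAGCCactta
H2BC8: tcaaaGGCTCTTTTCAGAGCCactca
H2AC8: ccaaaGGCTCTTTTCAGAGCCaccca
The first 5 of these genes were annotated past the hairpin and the last 4 were annotated to end at it, so the hairpin letters themselves did not part the classes: H2BC21, H2AC25 and H2AC6 had the same 16 bases as H1-2, H2BC8 and H2AC8. These classes were drawn from the annotation after the counts had been seen, and the annotation is GENCODE 44, which may not be the release the counts were made with.

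H1-10 held the most counts in every library but the first PD library of SUM159, where H2BC12 had 448 counts and H1-10 430. It took 20.1 to 63.4% of the counts of these genes in a library, which were 2115 to 3819 in all, while the other 48 genes shared 905 to 2225. Per kilobase of exon, the untreated A549 means were 60.8 RPKM for H1-10 and 25.2 for H2BC12, followed by H2BC5 at 7.0 and H1-2 at 6.51. In untreated SUM159 the order was H2BC12 at 32.5 RPKM, H1-10 at 25.5 and H1-2 at 17.3. Only genes with enough counts were tested, 21 of the 49 in A549 and 26 in SUM159. The untested ones reached no more than 0.568 CPM in any library of A549 and 0.441 CPM in SUM159. Some RNA that lacks a tail was carried through the selection, at a level like that of H2BC12 in the same libraries. The 17 such genes looked at summed to 11 ± 1.10 CPM (SD, n = 2) in untreated A549 and 17.1 ± 2.74 in untreated SUM159, almost all from RN7SL2. In A549 that sum was 137, 158 and 153% of untreated with PD, IN and P+I, and in SUM159 it was 94.1, 91.1 and 90.0%. Its part in the histone values below was not tested.

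H1-10 (chr3:129314771-129316286), a linker histone gene outside the clusters, fell with PD and with the combination in both lines. Its A549 levels were 96.1 and 88.3 CPM untreated, 45.0 and 50.9 with PD, 76.8 and 72.5 with IN, and 54.5 and 35.6 with P+I. SUM159 held less of it, at 39.4 and 38.0 CPM untreated, 16.1 and 17.5 with PD, 33.4 and 35.7 with IN, and 17.4 and 19.2 with P+I. PD and P+I libraries lay far below untreated ones in both lines, and IN libraries lay between. By edgeR's quasi-likelihood test with Benjamini-Hochberg adjustment, the log2 change with PD was −0.93 ± 0.123 (SE) for A549 (adjusted p = 2.68e-05) and −1.20 ± 0.0694 for SUM159 (2.21e-10), and with P+I it was −1.03 ± 0.127 (6.51e-06) and −1.08 ± 0.0690 (4.21e-10). The IN changes, −0.30 (0.0479) and −0.16 (0.0473), were at the edge of the threshold, did not pass in DESeq2 (0.293 and 0.193) and were lost without any 1 of the A549 libraries of UT, PD or IN (−0.24 to −0.36, lowest adjusted p 0.0695) or of the SUM159 libraries of UT or IN (−0.12 to −0.21, 0.0607). An antisense gene, H1-10-AS1, overlaps H1-10, and the strand setting of the counting is not given in the sources used here.

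H1-2 (chr6:26055740-26056470), a replication-dependent linker histone annotated to end at its hairpin, went the other way in A549. It stood at 5.12 and 4.40 CPM untreated, 7.27 and 6.61 with PD, 6.03 and 6.07 with IN, and 8.37 and 7.97 with P+I, with no overlap between treated and untreated libraries. SUM159 levels were 13.3 and 12 CPM untreated, 13.1 and 13.1 with PD, 11.9 and 11.3 with IN, and 12.6 and 12.2 with P+I, a range in which only the IN pair lay below the untreated pair. The A549 log2 change was 0.78 ± 0.129 with P+I (edgeR adjusted p = 0.000124) and 0.53 ± 0.129 with PD (0.00406), the latter 0.42 (0.0551) without the second UT library. The IN change, 0.34 (0.0468), did not pass in DESeq2 (0.241) and was 0.25 (0.248) without that library. In SUM159 the P+I change was −0.03 ± 0.0857 (0.792), and the difference between the lines was −0.74 (0.000587). The other H1 genes of the cluster were scarce. H1-4 held 10 to 27 counts per SUM159 library, and its change of −1.33 with P+I (0.00906) did not pass in DESeq2 (0.0654) and was −1.08 (0.0995) without the first UT library and −1.25 (0.0572) without the first P+I library. H1-3, at 4 to 13 counts per SUM159 library, changed by −0.80 ± 0.516 with P+I (0.191).

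**Figure D1:**
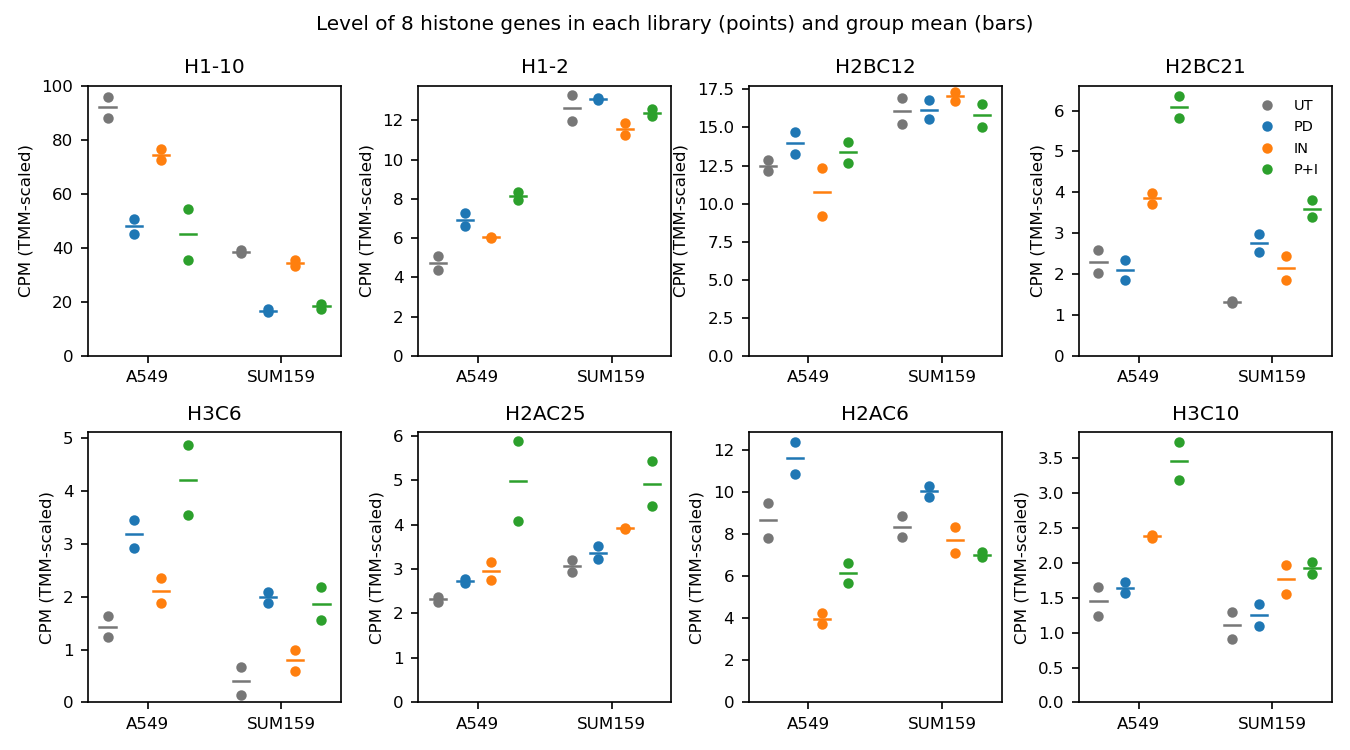
Level in CPM (linear axis from 0) of 8 histone genes in each library (points) with the mean of the group (bars), for A549 and SUM159 untreated (UT) and treated with palbociclib (PD), indisulam (IN) or both (P+I). The P+I libraries of H1-10 lay below the untreated ones, while the P+I libraries of H2BC21, H3C6 and H2AC25 lay above the untreated ones.

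The 48 hairpin genes did not follow H1-10. Their summed level in A549 was 54.4 ± 4.75 CPM (SD, n = 2) untreated, 59.1 ± 1.06 with PD, 52.6 ± 2.26 with IN and 66.7 ± 3.71 with P+I. The sums in SUM159 were 63.9 ± 0.757, 64.6 ± 0.700, 66.9 ± 2.62 and 67.4 ± 2.75 CPM. These sums ran from 96.7 to 123% of untreated in A549 and from 101 to 106% in SUM159, whereas H1-10 was at 48.9 and 47.4% with P+I. The SUM159 sums pool classes that moved apart. Genes annotated to end at the hairpin summed to 89.4, 98.8 and 91.1% of untreated with PD, IN and P+I. Those annotated past it summed to 120, 114 and 129%. Over the hairpin genes tested, the median log2 change with PD was −0.12 in A549 (20 genes, all genes 0.03) and −0.03 in SUM159 (25 genes, all genes 0.02). The SUM159 median pools classes that differed. It was −0.89 for the 11 tested genes annotated to end at the hairpin and 0.23 for the 14 annotated past it.

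The S phase genes of the same libraries moved further by their medians, −1.49 in A549 and −1.58 in SUM159 with PD. All 20 genes of a list of replication factors fell with PD in both lines, by −0.93 to −2.53 in A549 and −0.83 to −2.35 in SUM159 on the log2 scale, and all 20 fell with P+I. PCNA, the sliding clamp of DNA polymerase, went from 331 and 325 CPM to 122 and 133 with PD in A549 (−1.36 ± 0.0446, edgeR adjusted p = 4.59e-12) and from 242 and 258 to 74.2 and 68.3 in SUM159 (−1.81 ± 0.0463, 8.49e-15). NPAT and CASP8AP2, which act in the transcription of histone genes at the histone locus body, and SLBP, which binds the hairpin, fell as well. SLBP stood at 76.6 and 73.6 CPM untreated and 45.0 and 43.3 with PD in A549 (−0.77 ± 0.0530, 2.77e-08), and at 114 and 113 against 59.7 and 57.2 in SUM159 (−0.96 ± 0.0435, 8.65e-12). With PD, NPAT changed by −0.60 (6.57e-05) and −0.39 (3.81e-05), and CASP8AP2 by −0.84 (1.03e-07) and −0.62 (8.24e-08). Neither NPAT nor CASP8AP2 passed in SUM159 with IN (0.08, adjusted p = 0.278, and 0.11, 0.0942).

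**Figure D2:**
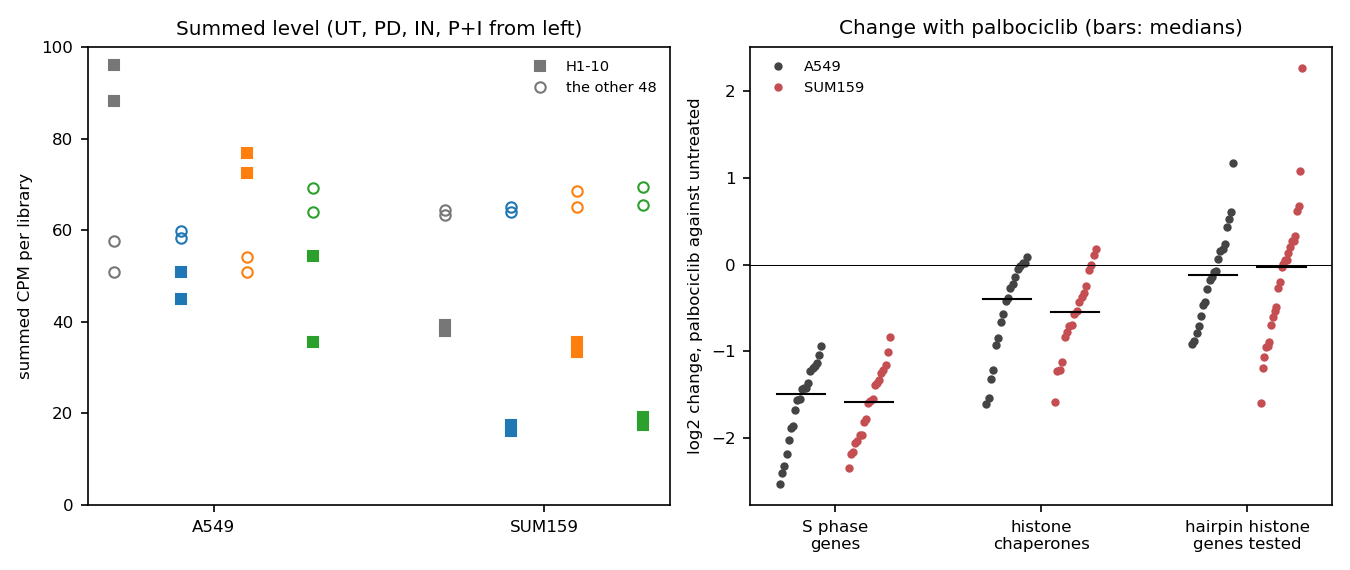
Left, summed CPM per library (linear axis from 0) of H1-10 (filled squares) and of the other 48 histone genes (open circles) in UT, PD, IN and P+I. Right, log2 change with palbociclib of each tested gene (points) and the median (bars) for S phase genes, histone chaperones and hairpin histone genes. The open circles, which pool both classes of annotated end, stay between 96.7 and 123% of untreated as group means. The hairpin genes, pooled over both classes of annotated end, centre at −0.12 and −0.03 where every S phase gene lies below 0.

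By lists, 15 of 19 genes of histone transcription and 3′ end processing fell with PD in A549 and 16 of 19 in SUM159, with 0 higher by edgeR in either line at adjusted or unadjusted p under 0.05. The chaperone list had 13 and 14 of 18 genes lower and 0 and 1 higher with PD. Of 8 genes of histone mRNA decay, 6 were lower and 0 higher in each line. Of all genes tested with PD, 21.1% were lower and 22.0% higher in A549, and 29.0% and 25.5% in SUM159. Replacement and variant histones are made outside S phase to a varying degree, and their 3′ ends, that of H2AX among them, were not examined here. They had 9 of 15 genes tested, with 6 lower in A549 and 7 lower and 1 higher in SUM159 with PD. H2AX, the variant phosphorylated at DNA breaks, went from 78.8 and 73.2 CPM to 17.8 and 19.8 with PD in A549 (−2.01 ± 0.111, edgeR adjusted p = 2.2e-09). The SUM159 levels went from 95.1 and 90.2 to 24.8 and 28.9 (−1.78 ± 0.0604, 2.06e-13). H2AZ1, a replacement H2A, fell by 1.00 (3.44e-08) and 0.93 (1.03e-10) on the log2 scale, and H3-3B, a replacement H3, by 0.19 (0.000761) and 0.48 (2.72e-08).

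Fewer genes of each list were called with IN than with PD. Of the S phase genes 15 were lower and 1 higher in A549 and 16 lower and 0 higher in SUM159, with 0 higher there at an unadjusted p under 0.05 and medians of −0.23 and −0.24. Of the transcription and 3′ end genes 7 were lower and 6 higher in A549 and 6 and 2 in SUM159, and of the chaperones 7 and 1, and 10 and 1. The decay genes gave 2 lower and 0 higher in A549 and 1 and 2 in SUM159, and the variant histones 3 and 2, and 2 and 3. Of all genes tested with IN, 25.9% were lower and 23.3% higher in A549, and 24.9% and 21.9% in SUM159. With P+I the lower genes of these last 4 lists numbered 12, 14, 5 and 7 in A549 and 17, 14, 6 and 7 in SUM159. The higher genes numbered 2, 1, 0 and 0 in A549 and 2, 1, 2 and 1 in SUM159. Of all genes tested with P+I, 30.4% were lower and 27.4% higher in A549, and 33.1% and 32.2% in SUM159. Differences from these shares were not tested.

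The calls were counted beside those among all genes tested, a difference that was not tested. With PD, 3 of 21 tested genes were higher and 2 lower in A549, where 22.0% and 21.1% of all genes tested were higher and lower, and 3 and 6 of 26 in SUM159, where the shares were 25.5% and 29.0%. IN gave 4 higher and 2 lower in A549 (all genes 23.3% and 25.9%) and 3 and 1 in SUM159 (21.9% and 24.9%). P+I gave 6 and 3 in A549 (27.4% and 30.4%) and 7 and 3 in SUM159 (32.2% and 33.1%). Of these 43 calls, 16 were kept by DESeq2, without each library in turn and under each other setting of scaling, filter and block that tested the gene. H3C6, at 14 and 3 counts in the untreated SUM159 libraries, was not tested there with at least 10 counts in every library. Its SUM159 calls, counted among the 16, were therefore not checked under that filter. The 16 were held by H1-10, H1-2, H2AC25, H2AC6, H2BC21, H3C10 and H3C6. DESeq2 alone kept 19, all of them held by these genes.

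The genes called higher with P+I were mostly annotated past the hairpin. Of the 12 tested genes of this class 5 were higher and 2 lower in A549, where 27.4% and 30.4% of all genes tested were, and 7 of 14 were higher and 1 lower in SUM159, where the shares were 32.2% and 33.1%. Neither the difference from those shares nor that between the classes was tested. The 7 included H4C16, at 6 and 6 counts, and H3C6, at 14 and 3 counts, in the untreated SUM159 libraries. Both passed the count filter there only with the help of treated libraries, so their calls are no separate support for a rise of the class. The median log2 change of the class was 0.27 in A549 and 0.48 in SUM159, against 0.00 and 0.01 over all genes tested. Of the genes annotated to end at the hairpin, 1 of 8 was higher in A549 (H1-2) and 1 of 11 was lower in SUM159 (H1-4), with class medians of 0.25 and −0.36. The numbers of genes past the hairpin called higher under the other settings were 4 to 5 in A549 and 3 to 7 in SUM159, where DESeq2 gave the 3. Of the first class 12 and 14 of its 15 genes passed the count filter, against 8 and 11 of 33, so the medians do not cover every gene. The grouping by splicing, which crosses this one, gave 3 higher and 2 lower of 10 tested genes with a spliced transcript in A549 and 5 and 1 of 12 in SUM159 with P+I.

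H2BC21 (chr1:149884459-149886682), an H2B gene with a single exon that runs 1729 bases past its hairpin, was called higher with P+I and with IN in both lines and with PD in SUM159. A549 libraries held 2.58 and 2.03 CPM untreated, 2.34 and 1.86 with PD, 3.72 and 3.98 with IN, and 6.35 and 5.81 with P+I. SUM159 libraries held 1.30 and 1.34, 2.55 and 2.98, 2.45 and 1.84, and 3.81 and 3.38 CPM in the same order. The P+I pair was the highest in both lines, and the PD pair overlapped the untreated pair in A549 and lay above it in SUM159. With P+I the log2 change was 1.39 ± 0.176 for A549 (edgeR adjusted p = 8.76e-06) and 1.45 ± 0.205 for SUM159 (9.18e-06). PD alone gave −0.18 ± 0.207 (0.527) and 1.07 ± 0.215 (0.000429). The difference between the lines in the PD response was 1.35 (0.00392), and fell to 0.98 (0.0686) without the first UT library of A549 and to 1.01 (0.0548) without its second PD library. IN gave 0.73 (0.00521) and 0.69 (0.0225). The A549 call was 0.58 (0.0575) without the second UT library, and the SUM159 call did not pass in DESeq2 (0.177) and was 0.67 (0.0958), 0.71 (0.0835) and 0.48 (0.181) without the first UT, second UT and first IN library.

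H3C6 (chr6:26224199-26227473), an H3 gene with a second annotated exon, rose with PD and P+I. Its A549 levels were 1.24 and 1.63 CPM untreated, 2.92 and 3.45 with PD, 2.35 and 1.88 with IN, and 3.54 and 4.88 with P+I. Its SUM159 levels were 0.675 and 0.144, 2.10 and 1.89, 0.602 and 0.993, and 2.18 and 1.56 CPM, where the untreated libraries held 14 and 3 counts. PD and P+I pairs lay above the untreated pair in both lines, and the IN pair overlapped it in SUM159. The log2 changes were 1.17 ± 0.243 with PD (edgeR adjusted p = 0.00128) and 1.55 ± 0.239 with P+I (6.11e-05) in A549, and 2.27 ± 0.397 (0.000121) and 2.2 ± 0.403 (0.000134) in SUM159. With IN they were 0.57 (0.0990) and 0.98 (0.115).

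H2AC25 (chr1:228434777-228457873), an H2A gene of the 1q42 cluster whose span overlaps the pseudogene RPL23AP15, was called against untreated for the combination and for neither single drug. It stood at 2.38 and 2.25 CPM untreated, 2.68 and 2.78 with PD, 3.17 and 2.75 with IN, and 5.89 and 4.08 with P+I in A549. SUM159 gave 2.94 and 3.21, 3.23 and 3.51, 3.93 and 3.90, and 5.43 and 4.41 CPM. Every treated library lay above every untreated one in both lines, with P+I highest. P+I changed it by 1.10 ± 0.204 (edgeR adjusted p = 0.000309) and 0.69 ± 0.153 (0.000842), while the single drugs gave 0.14 to 0.35 with adjusted p from 0.0910 to 0.504. P+I was higher than PD by 0.86 (0.00109) and 0.55 (0.00325), the latter not past the threshold in DESeq2 (0.0640) and 0.38 (0.0842) without the first P+I library.

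H3C10 and H4C8, also annotated past the hairpin, were higher with P+I. H3C10 (chr6:27810051-27811300), an H3 gene with 1 exon, went from 1.65 and 1.24 CPM untreated to 3.73 and 3.19 with P+I in A549 (1.25 ± 0.213, edgeR adjusted p = 0.000156). SUM159 libraries went from 1.30 and 0.910 to 1.84 and 2.02 (0.79 ± 0.251, 0.0107), which did not pass in DESeq2 (0.0944) and was 0.55 (0.134) without the second UT library. H4C8 (chr6:26277609-26285638), an H4 gene with spliced transcripts, gave 0.59 (0.0225) and 1.05 (0.0130) with P+I. Both H4C8 calls were lost by DESeq2 (0.179 and 0.0779). They were also lost without the first UT (0.51, 0.127) or first P+I library (0.54, 0.0830) of A549 and without the second UT (0.89, 0.0963) or first P+I library (0.90, 0.0882) of SUM159. H2BC5 and H4C16 were higher with P+I in SUM159, named here after their values were seen. H2BC5 changed by 0.49 (0.00508), with 0.0814 by DESeq2 and 0.37 (0.0735) without the first UT library. H4C16 changed by 1.00 (0.0434), which did not pass in DESeq2 (0.274) and was above 0.05 without any 1 of the 8 SUM159 libraries.

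IN alone gave weak calls in this class. H3C10 changed by 0.71 (edgeR adjusted p = 0.0181) in A549 and by 0.66 (0.0461) in SUM159, H4C8 by 0.93 in SUM159 (0.0406) and H2BC11, an H2B gene, by 0.71 in A549 (0.0346). DESeq2 made none of these calls (0.135, 0.332, 0.236 and 0.233). Each was also lost without 1 library, as in 0.53 (0.139) and 0.42 (0.317) for H3C10 and 0.78 (0.201) for H4C8 without the second UT library of the line, and 0.53 (0.211) for H2BC11 without the second IN library. H2BC11 was lower with PD in SUM159 (−0.61, 0.02), which did not pass in DESeq2 (0.138) or without the first UT (−0.45, 0.186), first PD (0.0566) or second PD library (0.0675).

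The neighbours H2AC6 and H2BC4, transcribed away from each other with 218 bases between their starts, were the genes annotated past the hairpin that were called lower with P+I, H2AC6 in A549 and H2BC4 in both lines. H2AC6 (chr6:26124145-26139116) stood at 9.51 and 7.83 CPM untreated, 10.8 and 12.4 with PD, 4.24 and 3.71 with IN, and 6.62 and 5.67 with P+I in A549. In SUM159 it stood at 8.87 and 7.86, 9.79 and 10.3, 8.34 and 7.09, and 6.92 and 7.15 CPM. PD libraries were the highest in both lines, and in A549 the IN libraries were the lowest by a wide margin. IN lowered it by 1.13 ± 0.150 in A549 (log2 change −1.13, edgeR adjusted p = 2.48e-05) against −0.12 ± 0.113 in SUM159 (0.406), and the difference between lines was 1.01 (0.00077). With PD it was higher by 0.43 (0.0105) in A549 and 0.27 (0.0407) in SUM159, neither past the threshold in DESeq2 (0.0944 and 0.205). The A549 value was 0.30 (0.133) without the second UT library and 0.32 (0.143) without the second PD library, and the SUM159 value 0.18 (0.283) and 0.23 (0.163) without the same libraries of that line. P+I gave −0.50 (0.00712) in A549, or −0.35 (0.111) without the first UT library. H2BC4 held 6 to 35 counts per library and changed by −1.32 (0.0109) in A549 and −0.82 (0.0210) in SUM159 with P+I. Those calls were lost in DESeq2 (0.112 and 0.139), without the first UT (−0.99, 0.139) or first P+I library (−0.94, 0.108) of A549 and without the first UT (−0.74, 0.114) or second P+I library (−0.60, 0.135) of SUM159. The annotated span of H2BC4 overlaps H1-6, H4C3 and HFE.

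**Figure D3:**
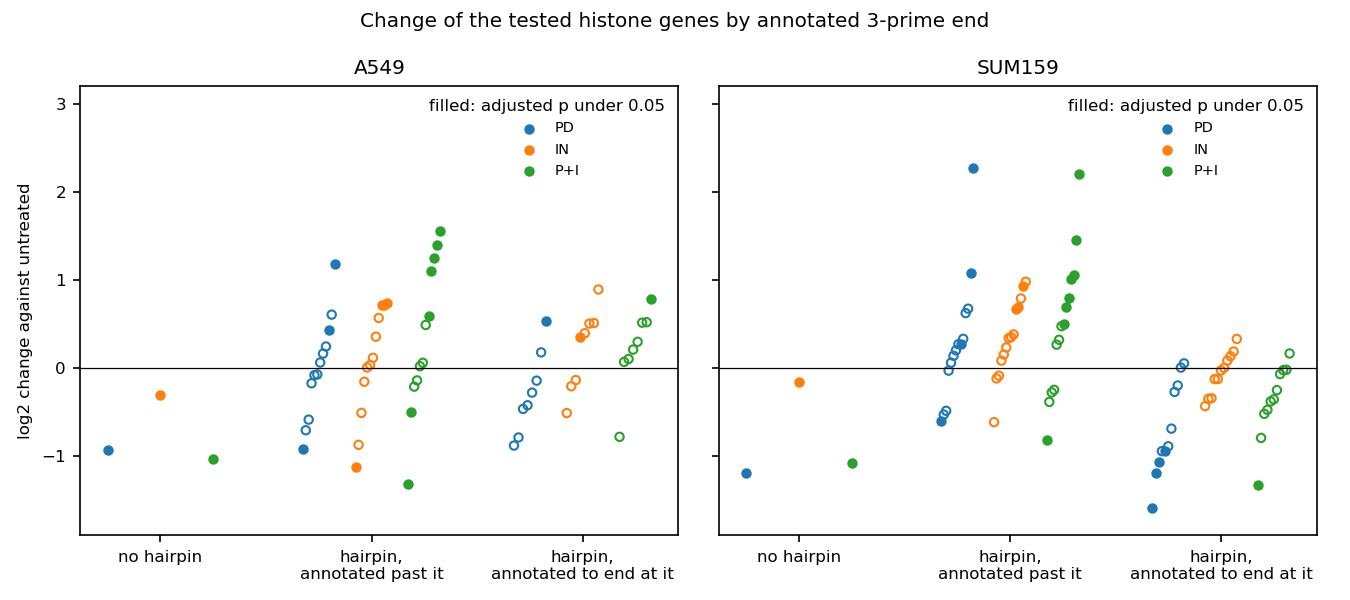
Log2 change against untreated of each tested histone gene, grouped by whether a hairpin was found and whether the annotation runs past it, for palbociclib (PD), indisulam (IN) and both (P+I), where filled points passed adjusted p under 0.05. H1-10, the gene without a hairpin, lies below 0 in each column, and the filled points above 0 are mostly in the middle class, 5 with P+I in A549 and 7 in SUM159.

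Of the 11 tested genes annotated to end at the hairpin, 4 were called lower with PD in SUM159, where 29.0% of all genes tested were, and the difference was not tested. They were H2AC8, H2AC11, H2BC7 and H1-4, with 5 at an unadjusted p under 0.05, and none was higher by edgeR at adjusted or unadjusted p under 0.05. The class median was −0.89 against 0.02 over all genes. In A549 the class median with PD was −0.35, with 1 of 8 higher and 0 lower at either threshold. DESeq2 called none of the 4 (H2BC7 had no adjusted p), and 1 of the class was called lower without the first UT or the second PD library. Their counts were small, 9 to 29 in each UT and PD library apart from H2BC7 at 4 to 10. H2BC12 (chr6:27146361-27146855), the core histone gene with the highest level, belonged to this class and showed no called change. It ranged from 9.22 to 14.7 CPM over the 8 A549 libraries and from 15 to 17.3 CPM in SUM159, and the P+I change was 0.10 ± 0.125 (edgeR adjusted p = 0.519) and −0.02 ± 0.0840 (0.820). The locus shares 39.0% of its 75-base windows with another histone locus, and such reads could be split or dropped.

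P+I was also set against each drug. In A549 6 genes were higher and 1 lower than with PD (all genes 23.7% and 27.8%), and 7 and 1 against IN (18.6% and 20.1%). In SUM159 4 and 1 were higher and lower than with PD (23.4% and 24.9%), and 4 and 1 against IN (24.9% and 28.0%). Genes higher than with either drug alone in A549 were H2BC21 (1.57 and 0.66, edgeR adjusted p = 2.17e-06 and 0.00309), H2AC25, H3C10 and H4C8, and in SUM159 H2AC25 and H2BC5. In A549 the H2BC21 calls were kept by DESeq2 and without each library. DESeq2 did not make those of H4C8 (0.119 against PD and 0.215 against IN) or that of H3C10 against IN (0.224), and H2AC25 against IN was 0.48 (0.0714) without the first P+I library and 0.65 (0.0584) without the second IN library. H4C8 against PD was 0.50 (0.116) without the second PD library, and H3C10 and H4C8 against IN were above 0.05 without either IN library or the first P+I library. In SUM159 DESeq2 made none of the calls, with 0.254 for H2AC25 against IN and 0.138 and 0.217 for H2BC5 against PD and IN. There H2AC25 against IN went from 0.34 (0.0468) to 0.17 (0.437) without the first P+I library, and was also above 0.05 with the replicate block (0.0619), with no filter (0.0703) and without either UT, the first PD or either IN library. H2BC5 against PD was above 0.05 without the first PD (0.0599) or first P+I library (0.0595), and against IN (0.34, 0.0333) with no filter (0.0641) and without any 1 of the IN and P+I libraries (0.0691 to 0.135). H1-10 was lower than with IN in A549 (−0.73, 0.000386) and in SUM159 (−0.92, 5.43e-09). For a departure from the sum of the single-drug changes, 0 of 21 genes were called in A549 by edgeR, 2 at an unadjusted p under 0.05, where 1.49% of all genes were higher and 2.05% lower. In SUM159 0 of 26 were called by edgeR, 2 at an unadjusted p under 0.05, where the shares were 2.22% and 2.16%, and DESeq2 called 0 in both lines. Of 20 tested hairpin genes in A549, 15 lay above 0 in this contrast, with a median of 0.37 against −0.01 over all genes, and of 25 in SUM159 14 did, with a median of 0.12 against −0.0036.

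The lines were compared untreated and in their responses. Of 29 genes tested over 16 libraries, 6 were higher and 8 lower in untreated SUM159 than in untreated A549 (all genes 38.3% and 38.0%). The response to PD was higher in SUM159 for 1 gene and lower for 0 by edgeR, or 2 and 1 at an unadjusted p under 0.05 and 1 and 0 by DESeq2 (all genes 9.65% and 3.15%), that to IN for 1 and 1 (8.04% and 6.97%), and that to P+I for 1 and 1 (19.1% and 11.8%). H1-2 was higher in SUM159 by 1.27 ± 0.115 (edgeR adjusted p = 3.11e-10), and H2BC9 by 2.68 ± 0.424 (3.86e-06). H2BC9 did not pass the count filter in A549 alone and passed that of the fit of 16 libraries only through SUM159. Its call is therefore no separate support for the difference. The same holds for H2AC8 and H2BC8, described below, which are also among the 6 higher genes. H1-10 was lower in SUM159 by 1.38 (log2 −1.38, 1.83e-11), H4C8 by 1.72 (−1.72, 4.05e-05), H3C6 by 1.92 (−1.92, 0.000562) and H2BC5 by 0.86 (−0.86, 2.2e-05).

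The H2AC8 and H2BC8 pair gave almost no counts in A549. Both genes are annotated to end at the hairpin, so these poly(A) counts do not measure their hairpin-ended mRNA, and other annotated genes overlap both spans. H2AC8 (chr6:26216921-26217437) had 0 counts in each of the 8 A549 libraries, and 12 and 17 untreated, 9 and 11 with PD, 16 and 21 with IN and 15 and 19 with P+I in SUM159. Its neighbour H2BC8 (chr6:26216200-26216688) had 1 count in 1 P+I library of A549 and 0 in the other 7, and 19 and 21, 13 and 23, 34 and 24, and 26 and 17 counts in SUM159. No SUM159 library overlapped an A549 library for either gene. A floor of 3 counts over both untreated A549 libraries was 0.0784 CPM of total counts. Untreated SUM159 lay 8.42-fold above it for H2AC8 (29 counts over both libraries) and 11.6-fold for H2BC8 (40 counts). These ratios allow for counting error in A549 only, and not for that of the SUM159 counts or for other spread. Both genes passed the count filter of the fit of 16 libraries only through SUM159, and the pair was singled out for its low A549 counts. Its calls as higher in untreated SUM159 (edgeR adjusted p = 1.94e-05 and 4.03e-06) are therefore no separate support for the difference.

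**Figure D4:**
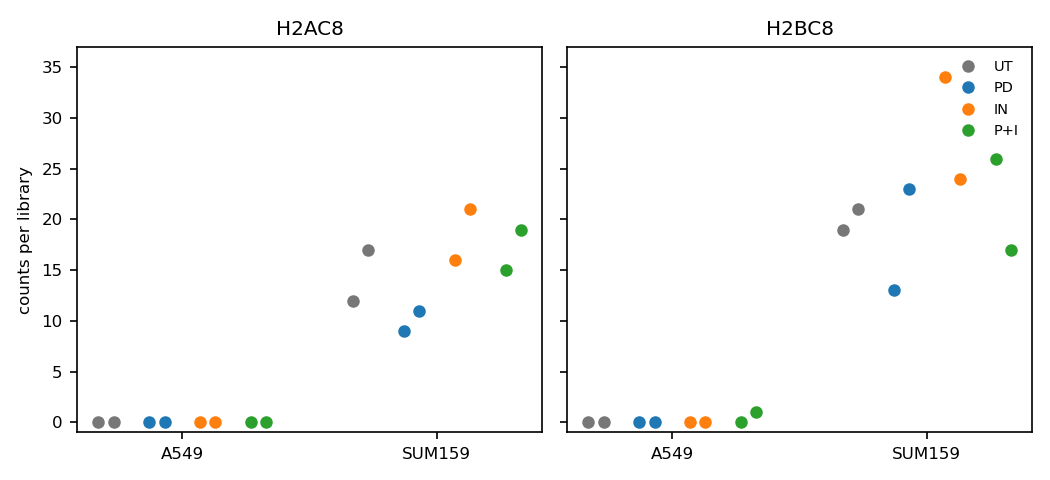
Counts per library (linear axis) of the neighbouring genes H2AC8 and H2BC8 in the 8 libraries of A549 and the 8 of SUM159, coloured by treatment. A549 libraries lie at 0 apart from 1 count of H2BC8 in 1 P+I library, and SUM159 libraries lie between 9 and 34.

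H2A and H2B genes are often paired head to head on a shared stretch of promoter. Among the 49, 10 pairs of genes lay on opposite strands with their starts 169 to 318 bases apart. The pair at 318 bases was H3C12 and H2BC17, and each other pair was an H2A and an H2B gene 169 to 250 bases apart. Some pairs had like levels and others did not. H2BC11 and H2AC11 stood at 2.09 and 2.58 RPKM in untreated SUM159, but at 1.11 and 3.68 RPKM in untreated A549. H2BC21 stood at 1.04 RPKM in untreated A549 and rose with P+I, while its partner H2AC20 stood at 0.765 RPKM and changed by 0.29 (edgeR adjusted p = 0.665). H2BC12 stood at 25.2 RPKM and its partner H2AC12 at 0.247 RPKM in the same libraries.

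The bases between the starts of the pair with at most 1 count in an A549 library and of the pair whose H2B gene was higher with P+I are shown on the plus strand of GRCh38, with matches to the TATA box TATAAA, the box CCAAT, the octamer ATTTGCAT, the letters TTTGGCGC or TTTCGCGC (E2F-type sites) and AAACACA (the H1 box) in capitals on either strand:
H2BC8/H2AC8, chr6:26216689-26216920: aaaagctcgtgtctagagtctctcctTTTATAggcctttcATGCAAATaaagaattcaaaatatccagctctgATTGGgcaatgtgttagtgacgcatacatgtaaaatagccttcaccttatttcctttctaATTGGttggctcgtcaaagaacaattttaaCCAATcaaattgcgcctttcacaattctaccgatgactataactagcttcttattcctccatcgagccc
H2BC21/H2AC20, chr1:149886683-149886917: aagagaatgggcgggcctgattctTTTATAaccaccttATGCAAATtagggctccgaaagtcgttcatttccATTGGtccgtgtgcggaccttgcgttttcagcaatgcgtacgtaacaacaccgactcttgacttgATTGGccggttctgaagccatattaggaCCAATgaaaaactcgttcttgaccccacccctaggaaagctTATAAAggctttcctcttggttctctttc
Both stretches held 3 CCAAT matches, 1 octamer and a TATAAA match on the minus strand, on which the H2B gene is transcribed, and the second held a further TATAAA match on the plus strand. A match is a description of the letters and not a site of binding.

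Promoter windows of 300 bases (250 before the start and 50 after) were found in RefSeq for 45 of the 49 genes and were searched on both strands beside 27305 windows in all. CCAAT was in 80.0% of the histone windows and 35.7% of all windows, TATAAA in 66.7% and 12%, and ATTTGCAT in 42.2% and 1.80%. The octamer was in 12 of 16 H2B and 7 of 10 H2A windows and in no window of the other families. Windows of head-to-head partners share bases, so a match can be counted for both genes, as with the octamer between H2BC8 and H2AC8. AAACACA was in 4 of 5 H1 windows and in 5.76% of all, and TTTGGCGC or TTTCGCGC in 22.2% of histone windows and 1.18% of all. CCAAT was in 80.0% of the 15 windows of genes annotated past the hairpin and in 82.8% of the 29 of genes annotated to end at it, and the octamer in 6 of 15 and 13 of 29.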

How the data were processed

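Per-gene counts were deposited by the authors, 1 file per library. Per the labels and the study's methods, poly(A)-selected stranded libraries were read as 75-base pairs and mapped to GRCh38 with HISAT2 2.2.1, and HTSeq is named in the submitters' processing notes; its version, strand setting and annotation release are not given in the sources used here. Of the reads, 13.2 to 16.4% were not assigned to a gene, and those rows were left out.

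Ensembl IDs were matched to GENCODE 44 (58207 of 58676). Within each line, counts were filtered with filterByExpr, scaled by TMM and tested with edgeR 4.0.16 (quasi-likelihood, 1 coefficient per group, 15744 genes in A549 and 16080 in SUM159, Benjamini-Hochberg, threshold 0.05) in R 4.3.3; differences between lines came from 1 fit of 16 libraries (17764 genes). The script was tested on simulated data. Alternatives were other scalings, filters and samples, DESeq2 1.42.0, a replicate block, each library left out and stricter thresholds. Duplicates differed beyond sampling noise in each group. Genes were named by a rule: per line the 8 with the highest mean CPM, per treatment the 3 largest called rises and falls, and the tested H1 genes; others are named as examples of a count or pair. 1 further gene of these families is not reported here. The genes and lists were chosen with earlier results of these data known. Hairpins were sought within 200 bases of the stop codon as 16 bases from GG to CC with 6 pairs, G:T allowed, and their classes were set after the counts were seen. Floors cover counting error only, and the ratios to a floor leave out the counting error of the SUM159 counts. Python was 3.11.15.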

Additional observations from a re-analysis of the deposited data

Results flagged for a closer look

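In 5 cases the response of a histone gene differed between the lines by the test of the difference itself (edgeR on 16 libraries, Benjamini-Hochberg over 17764 genes), given as the log2 change in SUM159 minus that in A549. H2BC21 differed by 1.35 with palbociclib (0.00392). H2AC6 differed by 1.01 with indisulam (0.00077). H1-2 differed by −0.74 with the combination (0.000587) and by −0.47 with indisulam (0.0446), the latter not past the threshold with total counts (0.0595), in DESeq2 (0.160), with no filter (0.156), without the second UT or either IN library of A549 (0.209, 0.107 and 0.0961), or without the first UT, either IN or either P+I library of SUM159 (0.150, 0.0630, 0.124, 0.0527 and 0.0526). H2BC5 differed by 0.77 with the combination (0.00573), which did not pass in DESeq2 (0.106) and was 0.55 (0.0923) without the first UT and 0.42 (0.139) without the second P+I library of A549.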

How the results depend on the processing

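The number of histone genes called in a comparison stayed within 1.5 times with all 16 libraries in the fit, with only the groups compared, and without genes sharing over 10% of their 75-base windows (added after seeing the data). With RLE size factors the PD response between lines had 2 calls in place of 1, and with total counts the IN response had 1 in place of 2. DESeq2 called 3 in place of 5 for PD, 2 in place of 6 for IN and 5 in place of 8 for P+I against IN in A549, 3 in place of 9 for PD, 0 in place of 4 for IN, 4 in place of 10 for P+I, 2 in place of 5 for P+I against PD and 3 in place of 5 against IN in SUM159, and 1 in place of 2 for the IN and for the P+I response between lines. Requiring a log2 change of at least 1 left 1 for PD, 1 for IN, 3 for P+I against PD and 0 against IN in A549, 0 for IN, 6 for P+I, 1 for P+I against PD and 1 against IN in SUM159, and 1 and 0 for the IN and P+I responses. An adjusted p under 0.01 left 3 for PD and 2 for IN in A549, 3 for PD, 0 for IN, 6 for P+I and 3 for P+I against IN in SUM159, and 1 for the IN response. Without a filter the A549 departure and the IN response had 1 call each. With at least 10 counts in every library, fewer genes were tested, and the PD response had 2 calls and the untreated comparison of lines 7 in place of 14. A minimum of 100 counts left 27 of the 49 genes.

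Same-numbered duplicates did not deviate together (correlations −0.199 to 0.195), so the numbers were not taken to pair libraries. With the replicate block, SUM159 IN had 2 calls in place of 4, and the other counts stayed within 1.5 times.

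Without each library in turn, calls in A549 were 3 to 5 for PD, 1 to 5 for IN, 6 to 9 for P+I, 5 to 8 for P+I against PD, 3 to 9 against IN and 0 to 2 for the departure. In SUM159 they were 4 to 10, 0 to 4, 6 to 10, 2 to 5, 2 to 5 and 0 to 0. Between lines they were 1 to 3 for PD, 1 to 2 for IN, 1 to 3 for P+I and 11 to 15 untreated. The P+I response of H1-10 went from 0.02 (adjusted p = 0.988) to −0.41 (0.00414) without the second P+I library of A549, and to 0.21 without the first. Total counts raised the median of all genes in SUM159 to 0.16 for P+I, 0.12 for PD and 0.10 for P+I against IN on the log2 scale. Depth limits most hairpin genes, whose counts were low.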

Other observations

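Among the replacement and variant histones, H2AJ and CENPA lay at opposite ends with the combination. H2AJ, an H2A variant, changed by 0.90 in SUM159 (edgeR adjusted p = 4.51e-08) and by 0.22 in A549 (0.0514). CENPA, the centromeric H3 variant, stood at −3.15 in A549 (5.62e-13) and at −2.14 in SUM159 (2.91e-13) against untreated. The variants H2BK1, H3-4, H3-5 and H3-7 held too few counts to be tested in either line, and H2AW and H2BU1 were not analysed here. H4C5, which is annotated to end at its hairpin, had uneven duplicates in A549, at 1 and 12 counts with IN and at 1 and 9 with P+I.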
